A study of Nothobranchius furzeri with 9 samples.

Results

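The genes described here encode the protein folding and endoplasmic reticulum (ER) stress machinery of the liver of the African turquoise killifish (Nothobranchius furzeri), a fish with a very short life span. Members were genes whose process annotation in the deposited table names protein folding, unfolded protein or ER stress, or whose symbol is that of a listed chaperone, J-domain gene or ER stress regulator. The rule took 149 of the 25475 genes in the table, of which 61 were chosen by process alone, 54 by name alone and 34 by both. By hand, they were placed in 10 roles, among them 16 ER chaperones, 12 ER disulfide and prolyl isomerases, 10 genes of ER-associated degradation, 13 sensors and regulators of the unfolded protein response, and 26 genes of the cytosolic HSP70 and HSP90 systems. The fish were males of the GRZ strain, an inbred line, with a wild type genotype and no treatment named. Bulk RNA was measured in whole liver at 3 ages, with 3 libraries each: young at 6 weeks, adult at 12 weeks and old at 23 to 24 weeks. No source says that the 3 libraries of an age came from separate fish, so p-values measure the spread between these libraries.

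Secreted and membrane proteins fold in the ER, where BiP (hspa5), GRP94 (HSP90B1) and the calnexin and calreticulin lectins hold nascent chains and protein disulfide isomerases form their disulfide bonds. When unfolded chains build up, the sensors IRE1 (ERN1), PERK (EIF2AK3) and ATF6 start the unfolded protein response, which raises ER chaperones through XBP1 and ATF6 and stress genes such as DDIT3 (CHOP) through ATF4. Cytosolic proteins rely on a separate set, HSC70 (hspa8), HSP90 and their J-domain partners, whose inducible members follow heat shock factor HSF1. Hepatocytes secrete most plasma proteins and so carry a large ER folding load.

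The libraries held between 19600325 and 33951438 estimated counts. Members took between 0.95% and 2.03% of the counts. Values are given below in CPM, the share of a library's counts scaled to a common total with TMM factors, which compares libraries for the same gene. TPM, which also divides by gene length, is used where different genes are set side by side. The 11 hepatocyte marker genes found summed to between 101913.5 and 133295.7 CPM in young and between 162510.6 and 179308.0 CPM in adult libraries. In old libraries they summed to 101501.8, 127569.1 and 190940.5 CPM. The part of hepatocyte content in the members' values was not tested. Some libraries stood apart from others of their age. Ribosomal RNA genes took 29.65% of the counts in young replicate 1 against 4.52% and 4.74% in the other young libraries, between 2.22% and 2.51% in adult fish, and between 7.07% and 21.98% in old fish. Young replicate 2 had the highest value of the 9 libraries in 62 of the 136 members that could be tested, while it had the highest value in 16.5% of all 13971 genes tested. Results are therefore also given without young replicate 1 and by a fit of only the 2 ages compared. For the calls between old and young fish they are also given without young replicate 2.

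In the edgeR quasi-likelihood fit of all 9 libraries, 136 of the 149 members passed the filter on low counts. The other 13 members never exceeded 0.743 CPM in a library, and 2 of them had no count at all. At an adjusted p under 0.05, no member differed between adult and young fish, where the fit called 0.0143% of all genes, and 18 members had an unadjusted p under 0.05, as did 9.76% of all genes. Between old and adult fish the fit again called no member, against 0.00716% of all genes, and 46 members had an unadjusted p under 0.05, as did 22.6% of all genes. Between old and young fish it called 1 member, calr, as lower, against 0.215% of all genes called lower, and 35 members had an unadjusted p under 0.05, as did 15.1% of all genes. The fit of only adult and old libraries called 32 of 132 members, 10 higher and 22 lower in old fish, against 7.42% of all genes called higher and 5.43% called lower. Without young replicate 1 the fit called 33 members between old and adult fish, against 11.1% of all genes, and 31 of them were also called with the 2 ages alone. Between old and young fish, the fit of only young and old libraries called 0 members, against 0.0454% of all genes. That of all ages without young replicate 1 called 38, 6 higher and 32 lower, against 4.3% of all genes called higher and 4.76% called lower. Without young replicate 2 instead, it called 0 members and 44 genes in all, and without young replicate 3, 0 members and 15 genes. DESeq2 called 2 members between adult and young fish, 26 between old and adult fish and 18 between old and young fish, against 2.73%, 12.3% and 7.26% of all genes.

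ER chaperone transcripts were lower in old fish than at either earlier age, with a median log2 fold change of -1.09 against adult fish and -1.36 against young fish, where the medians of all genes tested were -0.05 and -0.09. Against adult fish 13 of the 16 had a negative fold change, and against young fish 16 of 16 did. In 9 of the 16, every old library lay below every adult library, a pattern shown by 21.6% of all genes tested, and in 5 below every young library, against 7.9%. The fit of adult and old libraries alone called 5 of the 16, all lower in old fish, where 5.43% of all genes were called lower: HYOU1, HSP90B1, calr, CANX and dnajc3a.

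HSP90B1, the ER paralog of HSP90 and the most abundant ER chaperone by TPM averaged over the 9 libraries, measured 366.1, 1697.0 and 1172.5 CPM in the 3 young libraries, 997.7, 1045.6 and 620.7 CPM in the adult libraries and 102.0, 179.1 and 377.8 CPM in the old libraries. All old libraries were below all adult libraries, and young replicate 1 lay within the range of the old ones. The old mean of 219.7 ± 142.3 CPM (SD, n = 3) stood 4.04-fold below the adult level in the fit, a log2 fold change of -2.02 ± 0.6 (SE) with an edgeR adjusted p of 0.117. With adult and old libraries alone the log2 fold change was -1.98 ± 0.48 and the edgeR adjusted p 0.0378, within a range of 0.018 to 0.935 over 24 settings. The gene lies on chromosome 13 at 16043472 to 16048407 as the deposited table gives it.

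HYOU1, an ER relative of HSP70 that exchanges nucleotide on BiP, measured 59.1, 421.0 and 222.5 CPM in young, 207.2, 201.7 and 140.0 CPM in adult and 24.4, 27.3 and 42.4 CPM in old fish. The old libraries lay below all 6 others. Its log2 fold change between old and adult fish was -2.54 ± 0.6, with an edgeR adjusted p of 0.0949 in all 9 libraries and 0.0161 with the 2 ages alone, and between 0.0017 and 0.783 over 24 settings. Between old and young fish it was -2.9 ± 0.61, with an edgeR adjusted p of 0.0707.

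The calr gene encodes calreticulin, the soluble lectin that binds glycoproteins while they fold. It measured 26.6, 100.7 and 79.9 CPM in young, 37.2, 36.3 and 18.9 CPM in adult and 6.68, 9.84 and 3.62 CPM in old fish. Old libraries were below all others. The level fell by 3.36 ± 0.58 on the log2 scale from young to old fish, 10.3-fold, with an edgeR adjusted p of 0.0385. Leaving out any library other than young replicate 1 took this call away, with an edgeR adjusted p of up to 0.124 without old replicate 1, while without young replicate 1 the adjusted p was 0.00742. Over 24 settings it ran from 1.39e-06 in DESeq2 to 0.142 in the edgeR fit of only the 2 ages. The paralog CALR3, which exceeded HSP90B1 in old fish at 112.5 against 69.1 TPM, measured 445.1, 488.9 and 427.3 CPM in young, 297.8, 305.0 and 206.2 CPM in adult and 125.1, 140.0 and 246.7 CPM in old fish. Its old and young libraries did not overlap, with a log2 fold change of -1.41 ± 0.32 and an edgeR adjusted p of 0.0886. CANX, the membrane-bound counterpart, had a log2 fold change of -1.3 ± 0.45 between old and adult fish.

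BiP itself varied widely among young fish. hspa5 measured 5.13, 674.6 and 38.2 CPM in young, 88.0, 96.9 and 51.3 CPM in adult and 19.9, 5.43 and 0.0928 CPM in old fish. The old libraries lay below the adult ones, while the young libraries spread over the whole range, with young replicate 2 far above and young replicate 1 below the highest old library. The value in old replicate 3 was under the floor of 3 counts, 0.139 CPM. Between old and adult fish its log2 fold change of -3.22 ± 1.65 had an edgeR adjusted p of 0.273, and no setting brought it under 0.117. Among its J-domain partners, dnajc3a had a log2 fold change between old and adult fish of -1.95 ± 0.63 and DNAJB11 one of -0.99 ± 0.48. DNAJB9 on chromosome 1, an XBP1 target in mammals, was at 82.1 CPM in young replicate 2 and between 0.371 and 5.71 CPM in the 8 others. Its copy on chromosome 13 stayed between 1.72 and 3.86 CPM in all 9 libraries. DNAJC1 and WDR83OS were the ER chaperones with positive log2 fold changes between old and adult fish, at 0.2 ± 0.27 and 0.49 ± 0.29, beside the chromosome 13 DNAJB9 copy at 0.0 ± 0.52.

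**Figure D1:**
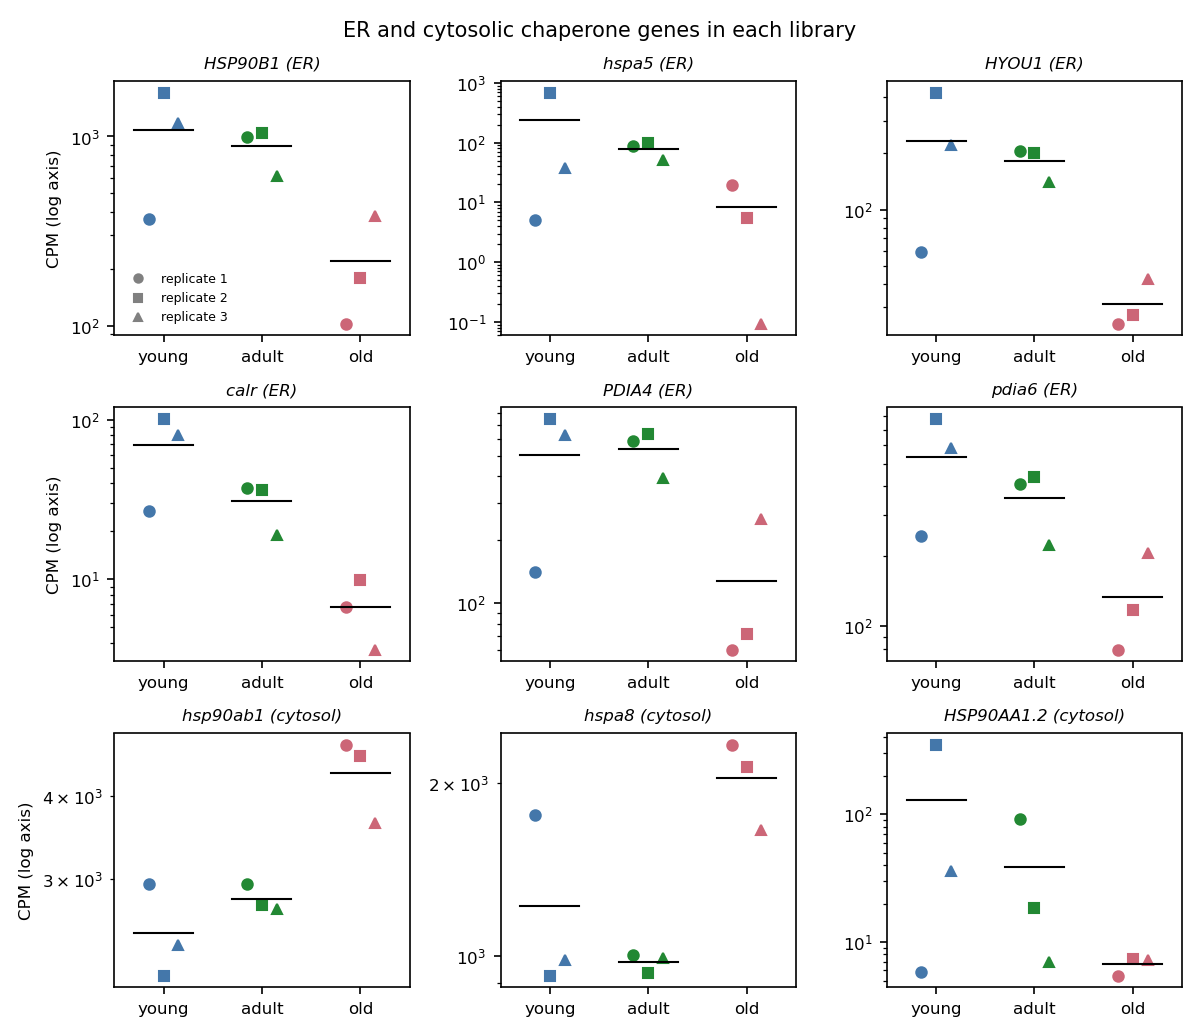
Each panel plots 1 gene in CPM on a log axis for the 3 libraries of each age, with marker shapes for the replicate numbers and a bar at the mean. By age mean, the ER genes are lowest in old fish, whereas hsp90ab1 and hspa8 are highest there. The ER genes are widely spread in young fish, from 5.13 to 674.6 CPM for hspa5. Young replicate 1 lies within the range of the old libraries for HSP90B1, hspa5, PDIA4, hspa8 and HSP90AA1.2.

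Genes placed as ER disulfide and prolyl isomerases, oxidases among them, were also mostly lower in old fish. Of 11 tested genes of this role, 9 had a negative fold change between old and adult fish and the median was -1.78, and in 9 every old library lay below every adult one, against 21.6% of all genes. The fit of adult and old libraries alone called 4 of 10, all lower in old fish, where 5.43% of all genes were called lower: pdia2, PDIA5, ero1b and the gene listed as PACSIN3 but described as the oxidase ERO1 alpha. Of these, pdia2 is set beside exocrine pancreas markers below. PDIA4, an isomerase with several thioredoxin domains, measured 141.1, 748.1 and 626.8 CPM in young, 591.1, 636.0 and 394.2 CPM in adult and 60.2, 71.6 and 251.8 CPM in old fish. Old libraries were below adult ones and young replicate 1 again lay among the old ones. Its log2 fold change between old and adult fish was -2.08 ± 0.68, with an edgeR adjusted p of 0.135. The values of pdia6 were 245.0, 778.0 and 581.4 CPM in young, 410.0, 438.8 and 223.3 CPM in adult and 79.2, 117.0 and 206.5 CPM in old fish. PDIA3, the calnexin-linked isomerase, had a log2 fold change of -0.75 ± 0.31 between old and adult fish. The oxidase ero1b, which recharges the isomerases, had a log2 fold change of -2.58 ± 1.16.

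PPIB, the ER cyclophilin, went the other way and was the most abundant gene of its role. It measured 1781.0, 1005.7 and 985.8 CPM in young, 945.7, 958.3 and 945.5 CPM in adult and 1748.8, 1461.2 and 1269.6 CPM in old fish. Every old library was above every adult one, and young replicate 1 was the highest of the 9. The log2 fold change between old and adult fish was 0.65 ± 0.3, with an edgeR adjusted p of 0.227. PPIC, another ER cyclophilin, had one of -2.22 ± 0.77 at under 2 CPM in each library.

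pdia2 is known in mammals as the isomerase of the exocrine pancreas. It was listed at 1.69, 7.82 and 17.1 CPM in young, 735.5, 64.8 and 205.1 CPM in adult and 7.13, 10.3 and 7.33 CPM in old fish. Every adult library was above all others. Beside it, the 16 exocrine pancreas markers found summed to 401.2, 663.4 and 2130.8 CPM in young, 77534.6, 6213.5 and 23698.1 CPM in adult and 1032.0, 509.3 and 634.9 CPM in old libraries, with only cpa4 at 0 throughout. Adult replicate 1 had the highest sum and adult replicate 2 the lowest of its age, as for pdia2. The log2 fold change of pdia2 was 5.23 ± 1.02 between adult and young fish and -5.34 ± 1.03 between old and adult fish, with edgeR adjusted p of 0.137 and 0.0771. The part of pancreas tissue in the other members was not tested, and in bulk RNA fewer cells of a type and less RNA per cell cannot be told apart.

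Genes of ER-associated degradation, which extracts misfolded proteins to the proteasome, were divided. Of 10 tested, 7 had a negative fold change between old and adult fish, with a median of -1.02. The 2-age fit called ERLEC1 and VCP lower and UBXN4 higher in old fish, against 5.43% of all genes called lower and 7.42% called higher. VCP, the ATPase that pulls proteins out of the membrane, measured 44.4, 313.8 and 340.9 CPM in young, 278.1, 290.2 and 245.2 CPM in adult and 50.2, 69.1 and 115.1 CPM in old fish. The old libraries lay below the adult ones, and young replicate 1 was the lowest of all. Its log2 fold change was -1.79 ± 0.63 between old and adult fish, with an edgeR adjusted p of 0.145. HERPUD1, which scaffolds the HRD1 complex and is a common marker of ER stress, had one of -1.29 ± 0.56, and the lectin os9 one of -1.31 ± 0.59. The 2-age log2 fold change of UBXN4, which recruits VCP to the ER, was 0.8 ± 0.19.

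Sensors and regulators of the unfolded protein response had fold changes of both signs. Of 13 tested, 4 had a positive and 9 a negative fold change between old and adult fish, with a median of -0.49. The 2-age fit called 3 lower in old fish, where it called 5.43% of all genes lower: XBP1, atf6 and the VAPB copy with the ID ENSNFUG00015014066. XBP1, the transcription factor that IRE1 activates by splicing, measured 22.8, 81.3 and 103.9 CPM in young, 338.9, 299.9 and 305.1 CPM in adult and 24.1, 47.8 and 131.8 CPM in old fish. Adult libraries were all above every young and old library, and young and old overlapped. The log2 fold change was 2.18 ± 0.66 between adult and young fish, with an edgeR adjusted p of 0.336, and -2.21 ± 0.66 between old and adult fish, with an edgeR adjusted p of 0.117. With the 2 ages alone the latter was -2.18 ± 0.57 and the edgeR adjusted p 0.0455, within a range of 0.0149 to 0.897 over 24 settings. Counts per gene do not separate the spliced from the unspliced transcript.

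The sensor atf6 measured 4.15, 44.0 and 10.5 CPM in young, 20.5, 15.5 and 13.4 CPM in adult and 1.57, 2.79 and 4.5 CPM in old fish. Old libraries were below adult ones and overlapped young replicate 1. The log2 fold change between old and adult fish was -2.47 ± 0.78, while that of the paralog ATF6B was 0.21 ± 0.37. The kinases ERN1 and EIF2AK3 had log2 fold changes of -0.49 ± 0.39 and -1.16 ± 0.51 between the same ages. DDIT3, the death-linked factor CHOP, measured 8.24, 3.53 and 9.75 CPM in young, 9.94, 5.08 and 9.06 CPM in adult and 7.41, 17.6 and 5.89 CPM in old fish. Its ages overlapped, and the log2 fold change between old and young fish was 0.52 ± 0.55 with an edgeR adjusted p of 0.711. A gene described as the IRE1 paralog ERN2, ENSNFUG00015011476, had a log2 fold change of 1.24 ± 0.51 between old and young fish, with an edgeR adjusted p of 0.289.

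**Figure D2:**
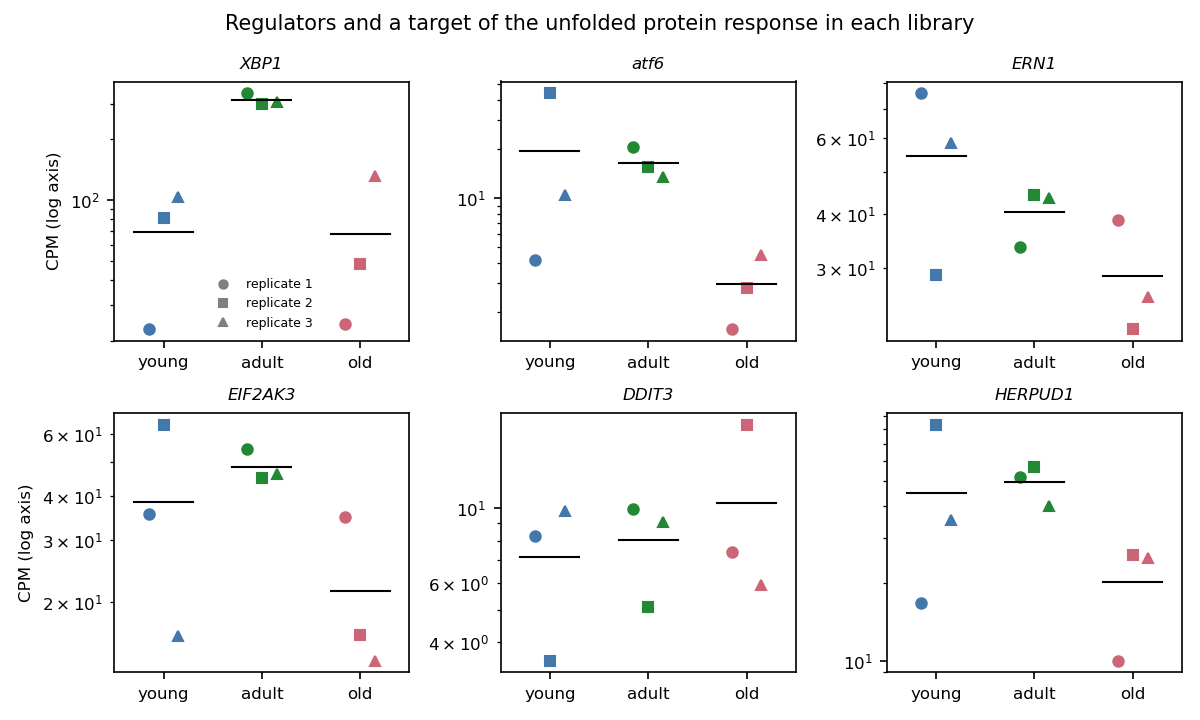
Each panel plots 1 regulator or target of the unfolded protein response in CPM on a log axis for the 3 libraries of each age, with marker shapes for the replicate numbers and a bar at the mean. XBP1 is highest in all adult libraries, at 299.9 to 338.9 CPM, atf6 is at 1.57 to 4.5 CPM in old libraries, and the ages overlap for DDIT3.

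Cytosolic HSP70 and HSP90 genes had fold changes of both signs. Of 24 tested, 10 had a positive and 14 a negative fold change between old and adult fish, and the median was -0.2. The 2 most abundant by TPM were higher in old than in adult fish. hsp90ab1, the constitutive HSP90, measured 2949.5, 2152.7 and 2390.8 CPM in young, 2948.3, 2747.7 and 2709.0 CPM in adult and 4759.8, 4587.8 and 3636.8 CPM in old fish. All old libraries were above the 6 others. The log2 fold change was 0.63 ± 0.25 against adult fish and 0.79 ± 0.25 against young fish, with edgeR adjusted p of 0.179 and 0.173. hspa8, the constitutive HSC70, measured 1754.7, 924.8 and 984.2 CPM in young, 1004.8, 935.1 and 993.6 CPM in adult and 2324.3, 2125.8 and 1656.0 CPM in old fish. Old libraries were above adult ones, and young replicate 1 was above old replicate 3. Against adult fish the log2 fold change was 1.06 ± 0.31, with an edgeR adjusted p of 0.115 in all 9 libraries and 0.02 with the 2 ages alone, and between 0.0123 and 0.741 over 24 settings.

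Among the partners of HSC70 and HSP90 in the cytosol, the 2-age fit called 3 lower in old fish, where it called 5.43% of all genes lower. They were the exchange factors hspa4a and hspa4b, with log2 fold changes of -2.22 ± 0.44 and -1.27 ± 0.25, and the J-domain gene DNAJA2L, with -2.13 ± 0.51. Several inducible genes were highest in young replicate 2. HSP90AA1.2, whose mammalian counterpart is the heat-inducible HSP90, measured 5.84, 348.1 and 36.0 CPM in young, 91.1, 18.6 and 6.98 CPM in adult and 5.44, 7.36 and 7.28 CPM in old fish. The young libraries covered the range of all others except old replicate 1, and the log2 fold change between old and young fish of -4.28 ± 1.38 had an edgeR adjusted p of 0.181. DNAJA4 was at 169.7 CPM in young replicate 2 and between 2.83 and 21.2 CPM elsewhere. HSPA2, whose row is described as an HSP70 gene, was at 40.4 CPM there and between 0.164 and 25.0 CPM elsewhere, with old libraries at 21.7, 4.62 and 16.0 CPM. The old against adult log2 fold change of hsp90aa1.1 ran from 1.71 to 5.21 over the 21 settings that tested it. For DNAJB1A it ran from -0.61 to 5.04, for hspa8b from -0.72 to 1.12 and for DNAJB1B from -0.21 to 0.45. For DNAJA1L it ran from -1.11 to 0.81. No setting called any of these genes between old and adult fish. In young replicate 2, 14 of the 24 tested cytosolic genes and 13 of the 27 tested ER chaperone and isomerase genes had their highest value.

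Summed per gene length, ER chaperones were lower in old libraries. The cytosolic sum, set mostly by hsp90ab1 and hspa8, was higher there than in adult libraries. The 16 ER chaperones summed to 570.0, 2861.0 and 1834.3 TPM in young, 1029.5, 1263.8 and 787.8 TPM in adult and 289.6, 373.1 and 551.6 TPM in old libraries. The 26 cytosolic genes summed to 1626.2, 2455.9 and 2065.9 TPM in young, 1726.6, 1880.1 and 1731.8 TPM in adult and 2406.8, 2567.3 and 2071.0 TPM in old libraries. Every old ER chaperone sum lay below every adult and every young one. The cytosolic sum in old fish lay above every adult library but overlapped the young ones. With the ER isomerase genes added, PPIB and pdia2 included, the ER sum averaged 4740.6 TPM in young, 3283.1 TPM in adult and 2568.9 TPM in old libraries. The isomerase genes alone averaged 2985.5, 2256.0 and 2164.1 TPM, and their adult and old libraries overlapped. With all genes of both roles, the ratio of the ER chaperone to the cytosolic sum was 0.351, 1.16 and 0.888 in young, 0.596, 0.672 and 0.455 in adult and 0.12, 0.145 and 0.266 in old libraries. All 3 old ratios were below all 6 others, young replicate 1 included. Most of the cytosolic sum came from hsp90ab1 and hspa8. Without them, it was 103.3, 789.2 and 270.2 TPM in young, 228.1, 227.6 and 194.7 TPM in adult and 116.7, 139.2 and 138.4 TPM in old libraries. The cytosolic genes left were thus also lower in every old library than in every adult one. The ratio of the ER chaperone sum to this smaller sum was 5.52, 3.63 and 6.79 in young, 4.51, 5.55 and 4.05 in adult and 2.48, 2.68 and 3.99 in old libraries. These old ratios were below every adult one, but old replicate 3 was above young replicate 2. With every gene given the same weight, the mean centred log2 CPM of ER chaperones and isomerases less that of cytosolic genes was 0.25, -0.11 and 0.61 in young, 0.31, 0.57 and 0.53 in adult and -0.89, -0.71 and -0.56 in old libraries. The old libraries were again below all others on this scale. These sums and differences are descriptions of chosen genes and carry no test.

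**Figure D3:**
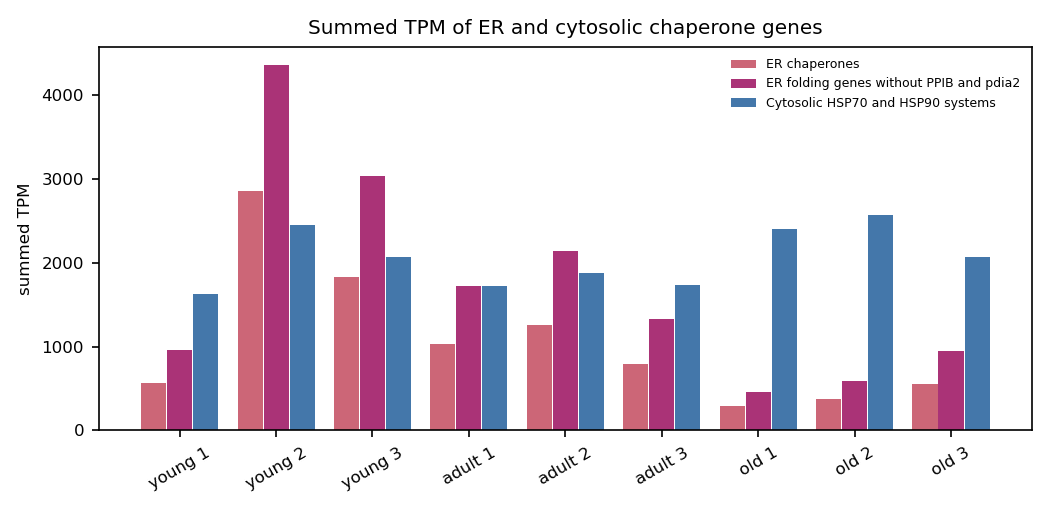
Bars show the summed TPM in each of the 9 libraries of the 16 ER chaperones, of these together with the ER isomerases other than PPIB and pdia2, and of the 26 cytosolic HSP70 and HSP90 genes. The ER sums are smallest in old libraries, at 289.6 to 551.6 TPM for the chaperones, while the cytosolic sums there are 2071.0 to 2567.3 TPM. With PPIB and pdia2, which the bars leave out, ER chaperones and isomerases average 3283.1 TPM in adult and 2568.9 TPM in old libraries.

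**Figure D4:**
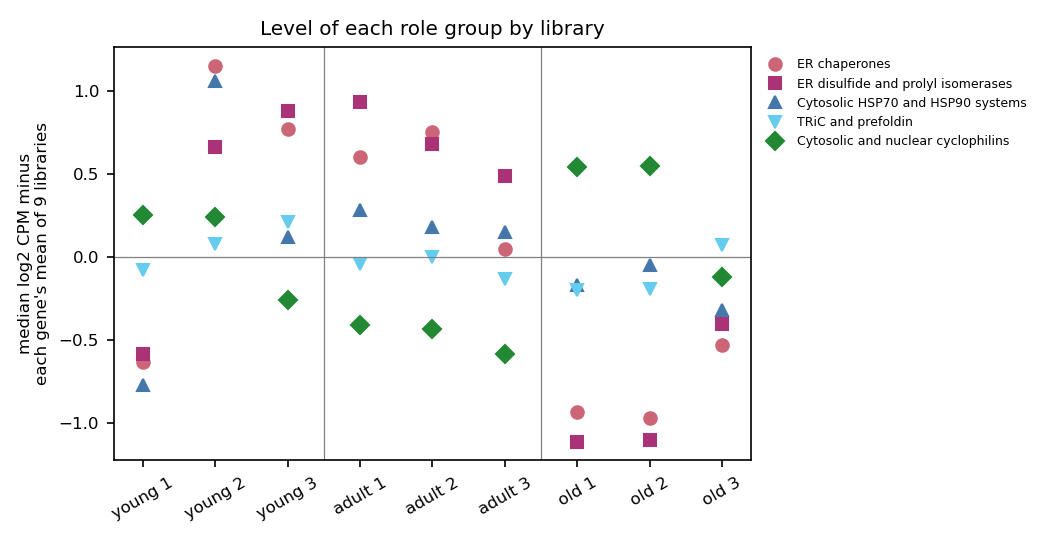
Points show, for each library, the median over a role's tested genes of the log2 CPM less each gene's mean over 9 libraries. ER chaperones are at -0.93, -0.97 and -0.53 in old libraries and at -0.63 in young replicate 1. Cyclophilins are at 0.54, 0.55 and -0.12 in old libraries, above the adult ones at -0.41, -0.43 and -0.58. Their old and young libraries overlap.

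The ribosomal RNA share moved with these values, being higher in all 3 old libraries than in any adult library and highest in young replicate 1. With the log2 share as a covariate, edgeR called no member between old and adult fish, against 0.0143% of all genes, and the median log2 fold change of ER chaperones there was 0.2, of ER isomerases -0.14 and of ER-associated degradation genes 0.6, against 0.09 for all genes. The shares of adult and old libraries do not overlap, so share and age cannot be told apart in that comparison. Between young and old libraries the shares overlap through young replicate 1 alone, and the other 2 young libraries lie below every old one. There the ER chaperone median was -0.91 with the covariate and -1.36 without it. The covariate fit called 9 members between old and young fish, against 1.55% of all genes called higher and 0.866% called lower. The 7 lower ones were calr, CALR3, HSP90B1, HYOU1, PDIA4, PDIA5 and pdia6, all of the ER. The 2 higher ones were hsp90ab1 and hspa8, of the cytosol.

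TRiC, the ring chaperonin that folds actin and tubulin, and prefoldin, which hands chains to it, showed little difference as a group, with a median of -0.05 between old and adult fish and 8 of 16 genes in each direction. The 2-age fit called 2 of the 16 higher in old fish, where it called 7.42% of all genes higher: PFDN6 and CCT4, with log2 fold changes of 1.15 ± 0.23 and 0.85 ± 0.2. Subunits of the same ring had fold changes of both signs: the log2 fold change of cct5 was -0.9 ± 0.37, of CCT3 -0.12 ± 0.24 and of CCT4 0.82 ± 0.26 in the fit of all libraries. CCT4 measured 216.2, 151.2 and 164.7 CPM in young, 114.9, 118.9 and 118.7 CPM in adult and 246.8, 202.9 and 174.5 CPM in old fish. The adult libraries were below all 6 others.

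Mitochondrial chaperones were mostly lower in old fish, with 12 of 14 negative against adult fish, a median of -0.86 and 9 genes whose old libraries all lay below the adult ones, against 21.6% of all genes. HSPA9, the mitochondrial HSP70 that pulls proteins into the matrix, measured 44.0, 180.1 and 225.2 CPM in young, 156.4, 154.6 and 159.9 CPM in adult and 36.9, 51.0 and 46.2 CPM in old fish. Old libraries lay below adult ones, with young replicate 1 among them. Its log2 fold change against adult fish was -1.81 ± 0.5, with an edgeR adjusted p of 0.115 in all 9 libraries and 0.0161 with the 2 ages alone, and between 0.00895 and 0.972 over 24 settings. The 2-age fit called 4 of the 14 lower, where it called 5.43% of all genes lower: HSPA9, trap1 (the mitochondrial HSP90) and both copies of DNAJC11. It called 1 of the 14, hspe1, higher, where it called 7.42% of all genes higher. The DNAJC11 copy on chromosome 10 was at 0.0561, 0.0 and 0.0 CPM in old libraries and between 0.6 and 5.7 CPM in all others.

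The chaperonin pair HSPD1 (HSP60) and hspe1 (HSP10), which form 1 folding chamber, had fold changes of opposite sign between old and adult fish, a difference that was not itself tested. They lie next to each other on chromosome 14, hspe1 at 11455296 to 11456401 on the minus strand and HSPD1 at 11460259 to 11464078 on the plus strand in the deposited table. HSPD1 measured 6.44, 36.0 and 32.2 CPM in young, 15.1, 21.0 and 14.6 CPM in adult and 3.26, 7.86 and 9.97 CPM in old fish. hspe1 measured 169.8, 41.5 and 45.9 CPM in young, 29.5, 35.0 and 28.3 CPM in adult and 83.0, 62.8 and 53.7 CPM in old fish. In old fish every library was below the adult ones for HSPD1 and above them for hspe1, and in young replicate 1 HSPD1 was lowest and hspe1 highest of its age. The log2 fold changes between old and adult fish were -1.26 ± 0.61 and 1.1 ± 0.51, with edgeR adjusted p of 0.248 and 0.231. With the 2 ages alone hspe1 had 1.13 ± 0.24 and an edgeR adjusted p of 0.0253, within a range of 0.0224 to 0.665 over 24 settings. In the covariate fit both signs turned, to 0.81 ± 0.48 for HSPD1 and -0.51 ± 0.3 for hspe1, with edgeR adjusted p of 0.67 and 0.665. The gene model of hspe1 is 452 bases long and that of HSPD1 2284. Across the 136 tested members, Spearman's rho between gene length and the old against adult log2 fold change was -0.26, against -0.01 over all 13971 genes, and genes are not independent replicates.

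Cytosolic and nuclear cyclophilins, prolyl isomerases of which several sit in the spliceosome, had their lowest mean in adult fish for 7 of the 10 tested, while PPIL1, PPIL2 and PPIL3 had it in old fish. Their median log2 fold change was -0.55 between adult and young fish, where all 10 tested were negative, and 0.72 between old and adult fish. PPIL1 had every old library below every adult one, with a log2 fold change of -1.21 ± 0.59. The 10 include ppifa, although its paralog ppifb was placed with the mitochondrial chaperones. In 5 of the 10, every old library was above every adult one, a pattern shown by 19.1% of all genes tested. The 2-age fit called 4 higher in old fish, where it called 7.42% of all genes higher: cwc27, ppifa, NKTR and ENSNFUG00015005065, which is described as cyclophilin A. That gene measured 210.5, 44.6 and 47.8 CPM in young, 32.0, 38.3 and 33.1 CPM in adult and 164.0, 133.2 and 83.8 CPM in old fish. Young replicate 1 was the highest library and the old libraries came next. In the covariate fit its log2 fold change between old and adult fish was -0.08, against 1.88 without the covariate.

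Small heat shock proteins were barely detected: HSPB1, HSPB7 and HSPB8 passed the filter, and HSPB8 was the highest with 3.8 CPM in young replicate 2. HSPB7 had a log2 fold change of 2.19 ± 0.99 between old and adult fish, at 1.8, 1.01 and 1.3 CPM in old libraries. Among 24 other J-domain and folding genes, of which 19 were tested, the median log2 fold change between old and adult fish was -0.83. DNAJC13, which acts on endosomes, had the smallest unadjusted p of these and measured 16.3, 32.0 and 32.1 CPM in young, 49.1, 43.4 and 45.3 CPM in adult and 8.59, 13.3 and 16.4 CPM in old fish. Its log2 fold change of -1.84 ± 0.37 had an edgeR adjusted p of 0.0789 in all 9 libraries. The splicing-linked DNAJC17 had one of 1.43 ± 0.38. The 2-age fit called DNAJC13 lower, with an edgeR adjusted p of 0.0163, where it called 5.43% of all genes lower. It called DNAJC17 higher, with an edgeR adjusted p of 0.0297, where it called 7.42% of all genes higher.

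**Figure D5:**
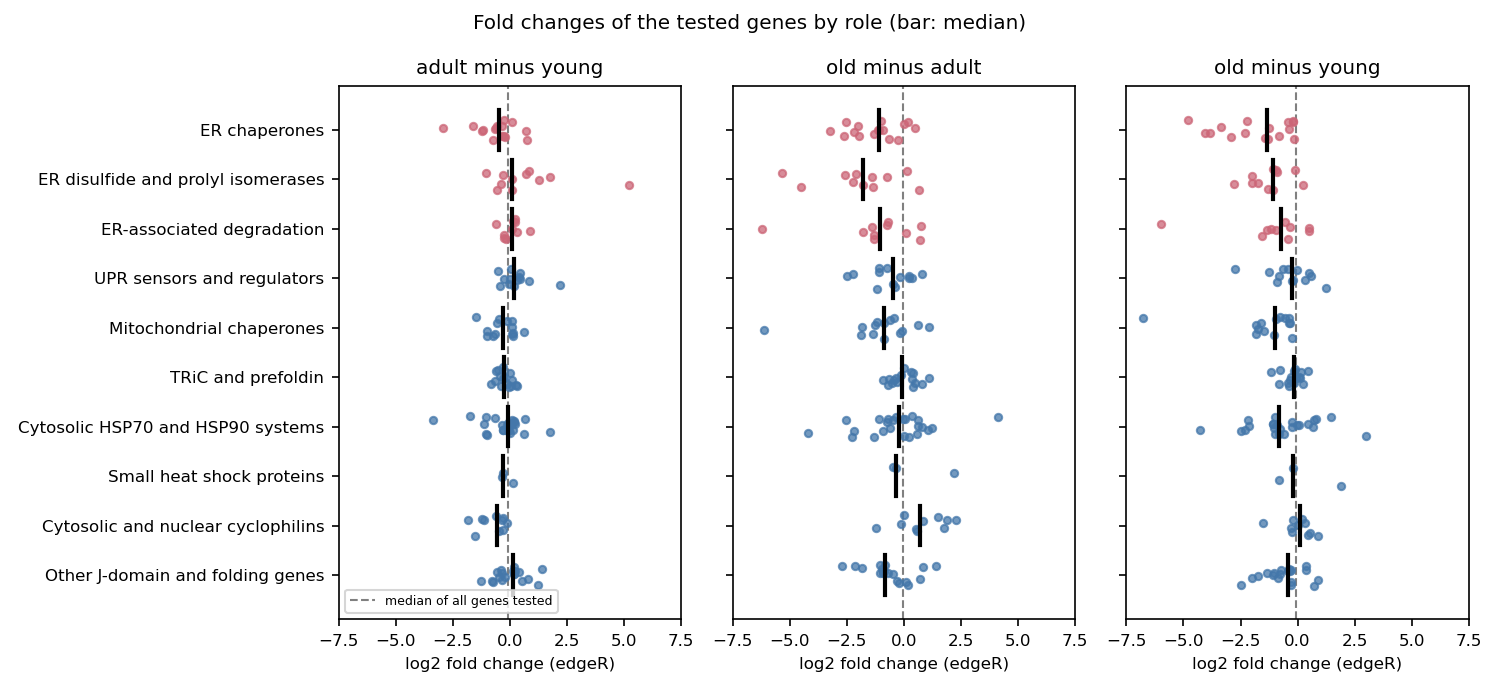
Points are the log2 fold changes of the tested genes of each role in the 3 comparisons, from the edgeR fit of all 9 libraries, with a bar at each role's median and a dashed line at the median of all genes tested. Between old and adult fish the medians run from -1.78 for ER disulfide and prolyl isomerases to 0.72 for cyclophilins.

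Genes of the same pathways that the rule had not taken were read from lists of textbook members. None of them was called in the fit of all 9 libraries. The counts below stand beside 7.42% of all genes called higher and 5.43% called lower in the 2-age fit. With the ribosomal RNA covariate the old against adult median of the further ER chaperones was 0.5, against -0.85 without it. That of further isomerases and oxidases was 0.7 against -0.52, and that of further degradation genes 0.37 against -0.55. The median of cytosolic co-chaperones was 0.25 against -0.63 and that of mitochondrial genes 0.14 against -0.34. For genes of glycoprotein trimming, ER translocation and retrieval it was -0.05 against -0.62, and for ATF4 and CHOP targets 0.13 against 0.38. The 2-age fit called 2 of 8 further ER chaperones lower in old fish and 1 higher. MANF, a secreted ER stress factor, had a log2 fold change of -2.11 ± 0.44 and SDF2 one of -1.67 ± 0.37, and CNPY4 was the higher gene. For sdf2l1, old libraries at 182.5, 150.9 and 165.0 CPM lay above adult ones at 140.7, 135.9 and 121.6 CPM. The 2-age log2 fold change was 0.35 ± 0.18 for sdf2l1 and -0.23 ± 0.34 for CRELD2, and neither was called. Of 16 further isomerases and oxidases erp44 and txndc5 were called lower. Of 31 genes of glycoprotein trimming, ER translocation and retrieval, 4 were called lower and 2 higher. The glucosidase II subunits GANAB (-2.5 ± 0.36) and PRKCSH (ENSNFUG00015007421), the glucosidase mogs and the KDEL receptor KDELR2A were lower, and ssr2 and SPCS3 higher. A second PRKCSH entry, ENSNFUG00015000360, had a 2-age log2 fold change of 0.02 ± 0.38 and was not called. The translocon gene SEC61A1 with the ID ENSNFUG00015005158 stayed between 452.2 and 583.1 CPM in all 9 libraries. Of 20 ER-associated degradation genes, 4 were called lower, SEL1L, syvn1, EDEM1 and EDEM3, with EDEM1 at -3.45 ± 0.55. The abundant isomerase P4HB was at 778.2, 842.3 and 1117.3 CPM in old and between 1260.5 and 1453.4 CPM in adult libraries, with a 2-age log2 fold change of -0.52 ± 0.21 that was not called. Of 17 tested cytosolic co-chaperones, 15 had a negative and 2 a positive fold change between old and adult fish in the fit of all libraries. Against young fish 15 were negative too, with a median of -0.78. The 2-age fit called STIP1, AHSA1 and FKBP8 lower, and of 8 further mitochondrial genes it called YME1L1B higher. No gene was called among 2 further TRiC and 2 heat shock factor genes tested, and neither of 2 further small heat shock protein genes passed the filter.

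Targets of ATF4 and CHOP divided between the directions, with 12 of 23 tested genes positive and 11 negative between old and adult fish and a median of 0.38. The 2-age fit called CEBPB (2.76 ± 0.42), EIF4EBP1 (1.5 ± 0.24) and NUPR1 (1.05 ± 0.25) higher and the amino acid enzymes ASNS and ALDH1L2 lower in old fish. That EIF4EBP1 entry was ENSNFUG00015009271, while a second one, ENSNFUG00015023067, had 0.67 ± 0.33 and was not called. Of 11 further regulators of the unfolded protein response PPP1R15B was called higher. atf4a, whose protein is mainly set by translation, lay between 35.7 and 51.2 CPM in all 9 libraries. HSF1, the heat shock factor, lay between 4.49 and 9.89 CPM, with a log2 fold change of 0.6 ± 0.38 between old and adult fish and an edgeR adjusted p of 0.365.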

How the data were processed

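Liver RNA was measured in 9 libraries, 3 per age, made with the SMART-Seq mRNA Kit per the labels. The deposited table gives each gene an estimated count, which the authors left unscaled between libraries, and a TPM, which the authors scaled for length and to 1 sum per library, per the file headers. The submitters' processing notes name DRAGEN, with settings, build and annotation not given in the sources used here. Between 93.6% and 95.7% of counts were whole; all were rounded. In edgeR 4.0.16 (R 4.3.3), genes were filtered by filterByExpr, scaled by TMM and tested by the robust quasi-likelihood test over 13971 genes, with Benjamini-Hochberg adjustment at 0.05 and a common biological coefficient of variation of 0.61. The script was tested on simulated data.

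Members and lists were chosen with earlier results of these data known. Symbols came from the table for 146 members and from RefSeq for 1, and 2 have none. Genes to be named were the main chaperones and regulators, any called, and the 3 most abundant of each role. Up to 4 per direction and comparison with the smallest p at 5 CPM or more were added. Not all of these are given with values, and others were chosen after their values were seen. Alternatives were RLE scaling, library size only, other filters, DESeq2 1.42.0, limma-voom (limma 3.58.1), no robust estimation, a fit of 2 ages at a time, a block for the replicate number, removal of ribosomal RNA, mitochondrial and pancreas genes, and each library left out. A gene length trend as an offset and the ribosomal RNA share as a covariate were added after seeing the data. Counting error limits values near the floor of 3 counts.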

Additional observations from a re-analysis of the deposited data

How the results depend on the processing

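Counts of members and of all genes called between adult and young fish, 0 and 2 with all 9 libraries in edgeR, went as follows. DESeq2 called 2 members and 396 genes, no filter on low counts 13 genes, limma-voom 10, and the 2 ages alone, with or without a length offset, and the ribosomal RNA covariate 0. With each library left out, they ranged from 0 to 0 and from 0 to 12. Between old and adult fish, with 0 members and 1 gene, no filter gave 1 and 74, DESeq2 26 and 1880, the 2 ages alone 32 and 1682, the same with a length offset 32 and 1564, and the covariate 2 genes. Libraries left out gave 0 to 33 members and 0 to 1625 genes, the highest without young replicate 1, where a length offset gave 34 and 1510. Between old and young fish, with 1 member and 78 genes, library size only gave 0 members, no filter 2 and 131, DESeq2 18 and 1113, limma-voom 0 members, the 2 ages alone 0 and 6, the same with a length offset 0 and 7, and the covariate 9 and 338. Libraries left out gave 0 to 38 members and 2 to 1321 genes, again highest without young replicate 1, where a length offset gave 38 and 1362.

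Same-numbered libraries of different ages deviated together in 3 of 9 pairs (correlation over 0.1), against 1 of 18 other pairs, and 7 of 9 libraries correlated best with their own number. Pairing was taken as given only where every pair passed 0.1 or the labels state it, so whether the numbers pair the samples is not known. With the replicate number as a block, 0 genes were called between adult and young, 0 between old and adult, and 45 between old and young fish, with 0 members in each, calr included.

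Library size only moved the median of all genes to -0.36 between adult and young and between old and young fish. The ribosomal RNA covariate turned the sign of 15 named old against adult log2 fold changes that exceeded 2 SE: CANX 0.18 ± 0.24, PDIA4 0.02 ± 0.39, MANF 0.35 ± 0.52, HERPUD1 0.33 ± 0.59, hspe1 -0.51 ± 0.3, HSPD1 0.81 ± 0.48, dnajc3a 0.4 ± 0.62, DNAJB11 0.57 ± 0.36, ENSNFUG00015005065 -0.08 ± 0.24, PPIB -0.11 ± 0.18, VCP 0.6 ± 0.29, os9 0.6 ± 0.35, DNAJC22 0.17 ± 0.3, cct5 0.22 ± 0.21 and VAPB 0.28 ± 0.4. None of the 15 was called in that fit, with edgeR adjusted p between 0.607 and 0.992. Between adult and young fish the covariate turned hspe1 to 0.05 ± 0.27 and ENSNFUG00015005065 to 0.27 ± 0.21. Leaving out single libraries moved DNAJB9 of chromosome 1 between -3.49 and 1.04 there, the latter without young replicate 2. The cause was not tested. In CPM in place of TPM, the ER chaperone sum was 2073.3 in adult and 758.2 in old fish, and the cytosolic sum 4299.7 in young, 4187.7 in adult and 6632.7 in old fish.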

Other observations

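Besides the genes above, young replicate 2 held further single genes apart from the 8 other libraries, chosen after their values were seen. It had the highest value of the 9 libraries in 16.5% of all genes tested. Its CREBRF copy ENSNFUG00015008855, a repressor of the unfolded protein response in mammals, was at 0.42 CPM, against 11.9 to 21.4 CPM elsewhere, while the copy ENSNFUG00015011320 was at 4.75 CPM within a range of 1.58 to 7.64 CPM. A second SEC61A1 gene, ENSNFUG00015016424, was at 76.4 CPM in that library and between 2.21 and 11.6 CPM in the others. The co-chaperone HSPBP1 was at 36.3 CPM there and between 7.34 and 11.9 CPM elsewhere.

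Per gene length, hspa5 averaged 126.6 TPM in young, 31.7 TPM in adult and 2.92 TPM in old fish, each below HSP90B1 at 485.4, 322.4 and 69.1 TPM. Copies of duplicated genes had these values, with no test between them. Of the 2 VAPB copies, ENSNFUG00015014066 had an old against adult log2 fold change of -1.07 ± 0.44 and ENSNFUG00015014990 one of -0.4 ± 0.29. The 2 DNAJC7 copies had -0.72 ± 0.38 and -1.08 ± 0.66. T and NK cell markers (lck and zap70) summed to between 12.2 and 17.7 CPM in old libraries and to at most 1.98 CPM in all others. Markers of B and plasma cells (1.16 to 2.69 against at most 1.08 CPM) and cholangiocytes (777.0 to 917.7 against at most 738.2 CPM) were also higher in every old library. Those of fibroblasts and stellate cells (34.1 to 68.8 against at least 87.3 CPM) and erythrocytes (23.3 to 63.8 against at least 83.0 CPM) were lower. The part of these cell types in the members' values was not tested.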
